A study of Arabidopsis thaliana with 66 samples.

Results

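Of 27313 Arabidopsis thaliana loci, 45 had transcripts in N8508 and N9416 and next to none in Col-0, or the reverse, by the rule below. The rule does not count all such differences between genotypes. Reads were summed over the transcript models of each locus and scaled to the library total (CPM). A locus was taken up if it lay under 0.5 CPM in all 12 Col-0 libraries outside the -P+Th treatment and at 5 CPM or more in all 33 libraries of the lines N8508 and N9416, or if the reverse held. The first condition gave 34 loci (0.124% of all loci), called silent in Col-0 below, and the second gave 11 (0.0403%), called silent in the lines. The loci were thus chosen by their CPM in these libraries, so the difference between Col-0 and N8508 or N9416 is given as a description and was not tested. The 18 libraries of N8507 and the 3 of Col-0 -P+Th took no part in the choice.

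RNA-seq libraries had been made from roots of the wild type Col-0 and of mutants N8507, N8508 and N9416 after 14 days of treatment. Mock plants were untreated, -P plants grew without phosphate, nanoP plants grew without phosphate but with nano-hydroxyapatite (a calcium phosphate mineral), and +Th marks added thorium, an actinide metal. All 4 genotypes had mock, -P, -P+Th, nanoP and nanoP+Th groups, and mock+Th groups of N8507 and N9416 were analysed too, which makes 22 groups of 3 libraries. The labels name neither the mutated genes nor the accession behind each line, and they do not say whether the 3 libraries of a group came from separate plants. The p-values below hold for the spread among these libraries, which may be technical.

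Assigned reads ran from 9.4 M to 16.8 M over the 66 libraries. Library numbers run from 128 to 160 for Col-0 and N8507 and from 193 to 225 for N8508 and N9416, so that genotype and library series cannot be told apart for the latter pair against Col-0, while Col-0 and N8507 share a series. Of 9 root markers, 8 had a median of 5 CPM or more in each set of libraries, CASP5 being the exception, and their sum lay between 183 and 636 CPM. The 6 green tissue markers summed to between 9.57 and 61.6 CPM. Of these, 2 had a median of 5 CPM or more in each set, LHCB4.1 and PSBO1. The median of LHCB4.1 was 13.4 CPM in Col-0 outside -P+Th, 27.4 in N8507 and 17.7 in N8508 and N9416. The median of RBCS2B and RBCS3B was 0. Effective length was low in N8507 -P+Th replicate 3 (57.3% of coding length), N8507 nanoP replicate 3 (59.2%) and Col-0 -P+Th replicate 1 (61.5%). At the loci silent in Col-0, replicates 2 and 3 of Col-0 -P+Th stood apart from every other Col-0 library, and the values of those libraries are given separately where a result rests on them.

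The 34 loci silent in Col-0 include several from families that plants use against pathogens. NLR proteins are receptors inside the cell that recognise pathogen effectors and start an immune response. Phloem protein 2 (PP2) proteins are related to lectins of the phloem, and terpene synthases make the volatile and resinous terpenoids that roots and leaves release. By RefSeq product name, 4 of the 34 belonged to a class of disease resistance, NLR and RPW8 names, the last being HR4 (11.8%, against 0.56% of all loci), 4 were C1 domain proteins (11.8% against 0.538%), 3 were terpenoid synthases or cyclases (8.82% against 0.125%), 2 were PP2 proteins (5.88% against 0.0989%) and 2 were F-box proteins (5.88% against 2.29%). A further 5 were uncharacterized, as were 4 of the 11 loci silent in the lines. Loci of the 45 with a symbol of their own in RefSeq include HSD2, HR4, SDH3-2, CSA1, DAR4, PP2-A8 and PP2-A6.

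Reads of 7 loci could have been divided with a near-identical copy. Coding identity with the closest other locus was 95% or more for 6 of the 34 and 1 of the 11, and the levels of these loci are uncertain. SDH3-2, a mitochondrial succinate dehydrogenase subunit, matched SDH3-1 at 99.8% of 642 aligned bases. The sum of both had a median of 139 CPM in Col-0 outside -P+Th, 123 in N8507 and 131 in N8508 and N9416, while the median of SDH3-2 alone was 0, 67.5 and 70.0 CPM in the same order. The F-box locus AT1G25211 and its copy AT1G24800 likewise had median sums of 152.5, 151 and 152 CPM. For these pairs the sum was of similar size in each set while its division between the copies differed. AT1G80980 with AT1G80700 (sums 14.9, 28 and 28.3 CPM) and the TIR-type NLR locus AT5G46510 with AT5G46520 (1.46, 62 and 80.8 CPM) had higher sums in the lines. AT4G09200 matches AT4G09250 at 100% of 844 aligned bases, out of its 1194 coding bases. AT5G50665 matches AT5G50565 at 100% of all its 417 coding bases. Neither copy had a median above 0 in any set. Among the loci silent in the lines, AT1G12340 with AT1G12390 had median sums of 14.7, 12.5 and 13.9 CPM. Leaving these 7 out, a choice made after seeing the data, leaves 28 and 10 loci. CSA1, DAR4 and PP2-A6 had no other coding sequence matching over 50% of their length.

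In Col-0 outside -P+Th, silence was close to complete. Of the 34 loci, 26 had no read in any of the 12 libraries, which together hold 179 M reads, so that a count of 0 allows a level of up to 0.0167 CPM (3 reads, counting error only). The other 8 had at most 8 reads each. Summed over the 34, the level was 0 to 0.425 CPM in those libraries (median 0.136). It was 1175 to 1936 CPM (median 1370) in the 15 libraries of N8508 and 1073 to 1693 CPM (median 1457) in the 18 of N9416.

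N8507, which the choice did not use, carried the same pattern. The summed level of the 34 loci was 1072 to 1606 CPM in its 18 libraries, which overlaps the ranges of N8508 and N9416. Of the 34, 32 lay at 5 CPM or more in all 18. The exceptions include AT4G07825, with 2.98 CPM in -P+Th replicate 3. That library has the low effective length given above, and its part in this value was not tested. Of the 11 loci silent in the lines, 10 lay under 0.5 CPM in all 18 libraries of N8507 and 7 had no read there. The exception was AT4G11540, with 11 reads (1.17 CPM) in -P+Th replicate 3. The share of all loci that meet either limit in all 18 was not computed, so these counts are a description only.

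**Figure D1:**
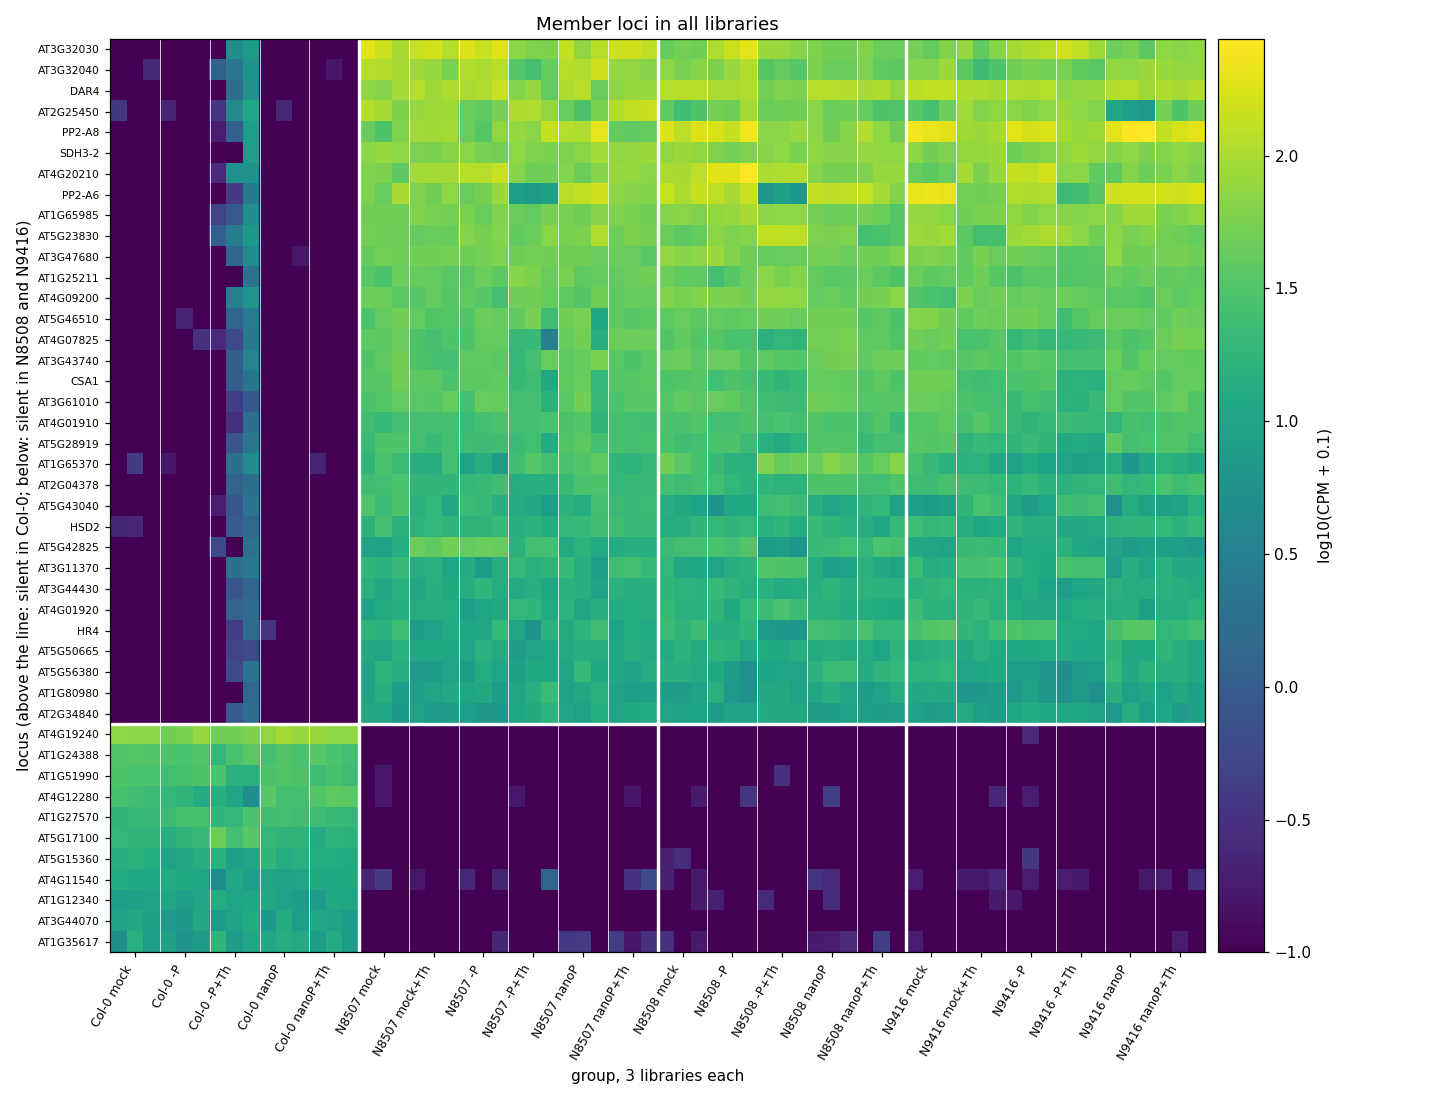
Level of 44 of the 45 loci (rows) in each library (columns, 3 a group), as log10 of CPM plus 0.1; the horizontal white line parts 33 loci silent in Col-0 from the 11 silent in the lines. The 33 are dark in Col-0 and bright in N8507, N8508 and N9416, apart from the Col-0 -P+Th columns, where replicates 2 and 3 carry intermediate levels.

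Per length, the highest of the 34 in N8507 was AT5G23830, an MD-2-related lipid recognition protein, with a median of 147 TPM, the deposited measure scaled by transcript length. It was followed by SDH3-2 at 112 TPM, the uncharacterized AT5G42825 at 77.6, the leucine-rich repeat protein AT3G43740 at 73.5, the terpenoid synthase AT3G32040 at 67.2 and the beta-galactosidase-related AT2G04378 at 64.3 TPM. These medians run over treatments, and neighbours in this order lie closer than the spread between libraries.

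In the 3 libraries of Col-0 -P+Th, the 34 loci were at unequal levels. Replicate 1 had 45 reads over all 34 loci (3.62 CPM), replicate 2 had 630 (42.7 CPM) and replicate 3 had 1620 (116 CPM). The sum in replicate 1 was thus above the 0.425 CPM maximum of the other Col-0 libraries, and that in replicate 3 was far below the 1072 CPM minimum of N8507. The number of loci at 5 CPM or more was 0, 2 and 9 in these replicates, and the number under 0.5 CPM was 32, 12 and 0. Replicate 3 was the highest of the 3 at all 34 loci. As a percentage of the mean of N8507 -P+Th, the median locus stood at 0% in replicate 1 (range 0 to 3.08%), 4.02% in replicate 2 (0 to 10.2%) and 11.1% in replicate 3 (3.37 to 29.4%). Whether these reads came from the labelled plants, from a mixed-up sample or from carry-over between libraries was not tested.

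The sum of the reverse loci ranged less widely over the 3 libraries, and its bearing on the source of the reads was not tested. Summed over the 11 silent in the lines, Col-0 -P+Th had 234.5, 199 and 232 CPM in replicates 1, 2 and 3. The other Col-0 libraries had 209 to 284 CPM (median 257), so that replicate 2 lay below their range. N8507 had 0 to 1.17 CPM, N8508 0 to 0.751 CPM and N9416 0 to 0.588 CPM. Of the 11, 10 lay at 5 CPM or more in all 3 libraries of Col-0 -P+Th, and AT4G11540 had 4.51 CPM in replicate 1. The share of all loci at that level there was not computed.

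**Figure D2:**
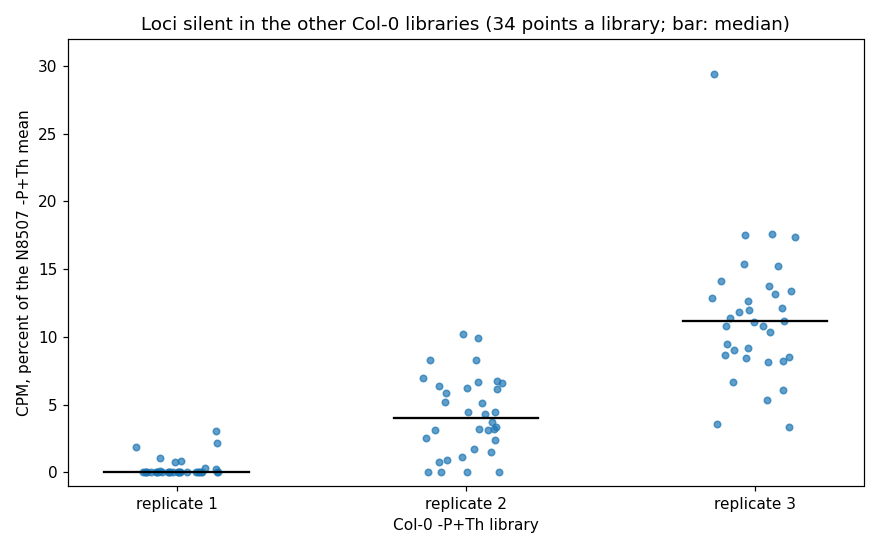
CPM of each of the 34 loci silent in the other Col-0 libraries (points) in the 3 libraries of Col-0 -P+Th, as a percentage of the mean of N8507 -P+Th; bars are medians. The medians are 0%, 4.02% and 11.1% in replicates 1, 2 and 3, and the highest point, PP2-A6, stands at 29.4%.

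The same limits, applied only to libraries that the choice had not used, depended on which library stood for Col-0. Under 0.5 CPM in Col-0 -P+Th replicate 1 and at 5 CPM or more in all 18 libraries of N8507 were 38 loci (0.139% of all), of which 30 were among the 34 (78.9% of the 38 and 88.2% of the 34). With replicate 2 in its place there were 12 loci (0.0439%), 10 of them among the 34, and with replicate 3 there was 1 locus (0.00366%), not among the 34. In the reverse direction the 3 replicates gave 24, 22 and 22 loci (0.0879%, 0.0805% and 0.0805%), and each time 10 of them were among the 11. The overlap of the 24 made up 41.7% of these and 90.9% of the 11. Taking all 3 replicates together, 16 loci met the reverse condition (0.0586%), 10 of them among the 11, and 0 met the first (0.0%).

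Col-0 -P+Th was tested against N8507 -P+Th, since neither group had served to choose loci. All 34 loci silent in Col-0 were lower in Col-0 -P+Th, by edgeR's quasi-likelihood test at an adjusted p under 0.05, against 13.6% of 20839 genes called lower. The median log2 fold change over the 34 was -4.29 (range -6.50 to -3.22), and that over all genes 0.01. All 11 loci silent in the lines were higher, where 14.0% of genes were called higher. In the fit of Col-0 alone 2 of the 34 passed the filter on low counts, and the 11 did not pass in the lines. Both lists thus entered this comparison largely through the groups where they are high. A call in the other direction could hardly occur, so the counts are a description. With any 1 library left out, all 45 were still called. With replicate 1 as the lone Col-0 -P+Th library, a choice made after seeing the data, and assumed to vary like the other groups, the count of calls was 45 as well. The median over the 34 was -5.46 without replicate 3 of Col-0 -P+Th and -3.80 without replicate 1. With replicate 1 alone the fitted median was -10.58, which depends on the prior count, since 25 of the 34 had no read there. With loci of 3 reads or fewer set at a floor of 3 reads in that library, the median log2 ratio to the N8507 -P+Th mean was -6.21. The size of the pooled fold thus rests on replicates 2 and 3. DESeq2 called 34 and 7.

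PP2-A6 had the smallest fold of the 34. It had 0, 0.271 and 2.37 CPM in Col-0 -P+Th and 8.35, 7.30 and 8.51 CPM in N8507 -P+Th (log2 fold change -3.22, SE 0.437, adjusted p = 2.06e-07 by edgeR). AT1G25211 had the largest fold (-6.50, SE 0.399, adjusted p = 2.51e-16) with 0, 0 and 1.86 CPM in Col-0 -P+Th, and is among the loci with a near-identical copy. Next came AT3G61010, a ferritin-like protein (-5.87, SE 0.337), and the C1 domain locus AT4G01910 (-5.47, SE 0.351). Of the other loci with a symbol, PP2-A8 was at -5.02 (SE 0.504), DAR4 at -4.78 (SE 0.393), SDH3-2 at -4.63 (SE 0.488), HSD2 at -4.28 (SE 0.322), CSA1 at -4.23 (SE 0.332) and HR4 at -4.13 (SE 0.451). These folds pool unequal replicates. SDH3-2 had 0, 0 and 7.99 CPM in replicates 1, 2 and 3 of Col-0 -P+Th, so that its reads, like those of AT1G25211, came from replicate 3 alone. PP2-A8 had 0.0805, 1.08 and 8.11 CPM there, and DAR4 0, 1.56 and 5.31 CPM. AT3G61010, AT4G01910, HSD2, CSA1 and HR4 were at 0 in replicate 1 and highest in replicate 3. The groups did not overlap at any locus named here.

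Against N8507, 9 of the reverse loci had no read in the 3 libraries of N8507 -P+Th, and a floor of 3 reads over that group bounds the fold. The uncharacterized AT4G19240 was at least 703-fold higher in Col-0 -P+Th, with 48.3, 51.5 and 57.9 CPM there. AT5G17100, of the cystatin superfamily, which holds protease inhibitors, was at least 465-fold higher, with 45.5, 26 and 34.8 CPM. The uncharacterized AT1G24388 was at least 377-fold higher, the kinase family locus AT1G27570 at least 295-fold, and the O-methyltransferase family locus AT1G51990 at least 261-fold. AT1G35617, AT1G12340, AT5G15360 and AT3G44070, the last a glycosyl hydrolase, were at least 158-, 156-, 155- and 133-fold higher. The bound of AT1G12340 does not cover the division of reads with its near-identical copy AT1G12390. The median sum of both was 14.7 CPM in Col-0 outside -P+Th and 12.5 CPM in N8507. AT4G11540, a C1 domain protein, had 11 reads in N8507 -P+Th and a ratio of 29.7. AT4G12280, of the copper amine oxidase family, had 14.7, 10.5 and 5.10 CPM in Col-0 -P+Th and a single read in N8507 -P+Th. DESeq2 did not call 4 of the 11, and the adjusted p of AT1G24388 and AT5G17100 rose to 0.225 and 0.207 there.

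The treatments changed part of the 34 loci within the lines, where all 34 passed the filter on low counts. Since the choice held N8508 and N9416 to 5 CPM or more in every library, falls towards 0 could not occur in these lines. The 11 reverse loci were too low to be tested in the lines. In such bulk root samples, fewer cells of a type and less RNA per cell cannot be told apart. The same count of calls stands for smaller effects in N8508 and N9416, whose common dispersion was 0.0214 and 0.018, than in N8507 (0.0769). Comparisons within a line share groups, so their values are set side by side only.

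The share of all genes tested that was called in the same direction follows each count of the 34 in brackets. Without phosphate, in N8507 2 rose (3.13%) and 1 fell (0.776%), in N8508 5 rose (5.73%) and 2 fell (3.86%), and in N9416 5 rose (20.8%) and 12 fell (17.3%). With nano-hydroxyapatite against -P, in N8507 3 rose (2.11%) and 2 fell (2.38%), in N8508 7 rose (17.7%) and 8 fell (20.3%), and in N9416 6 rose (15.2%) and 6 fell (15.1%). With thorium on -P, in N8507 6 rose (15.9%) and 10 fell (13.9%), in N8508 8 rose (23.2%) and 15 fell (23.9%), and in N9416 3 rose (20.1%) and 14 fell (19.9%). With thorium on nanoP, in N8507 1 rose (1.96%) and 2 fell (2.69%), in N8508 1 rose (9.22%) and 6 fell (7.18%), and in N9416 2 rose (10.5%) and 3 fell (11.1%). With thorium on mock medium, in N8507 3 rose (8.22%) and 1 fell (3.59%), and in N9416 7 rose (27.2%) and 18 fell (24.5%). The median log2 fold change of the 34 under thorium on -P was -0.20 in N8507, -0.36 in N8508 and -0.22 in N9416, beside all-gene medians of 0, 0.0142 and -0.00186 in the same order.

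Several of these counts rest on single libraries. In N8507, 10 in place of 16 of the 34 were called under thorium on -P without -P replicate 2, 3 in place of 5 in nanoP against -P without -P replicate 1 or 2 or nanoP replicate 3, and 2 in place of 4 in mock+Th against mock without mock+Th replicate 1 or 3 or mock replicate 1. In N8508, 4 in place of 7 were called in -P against mock without mock replicate 1. In N9416, 3 in place of 5 were called in nanoP+Th against nanoP without nanoP+Th replicate 1, and 2 without nanoP replicate 3.

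**Figure D3:**
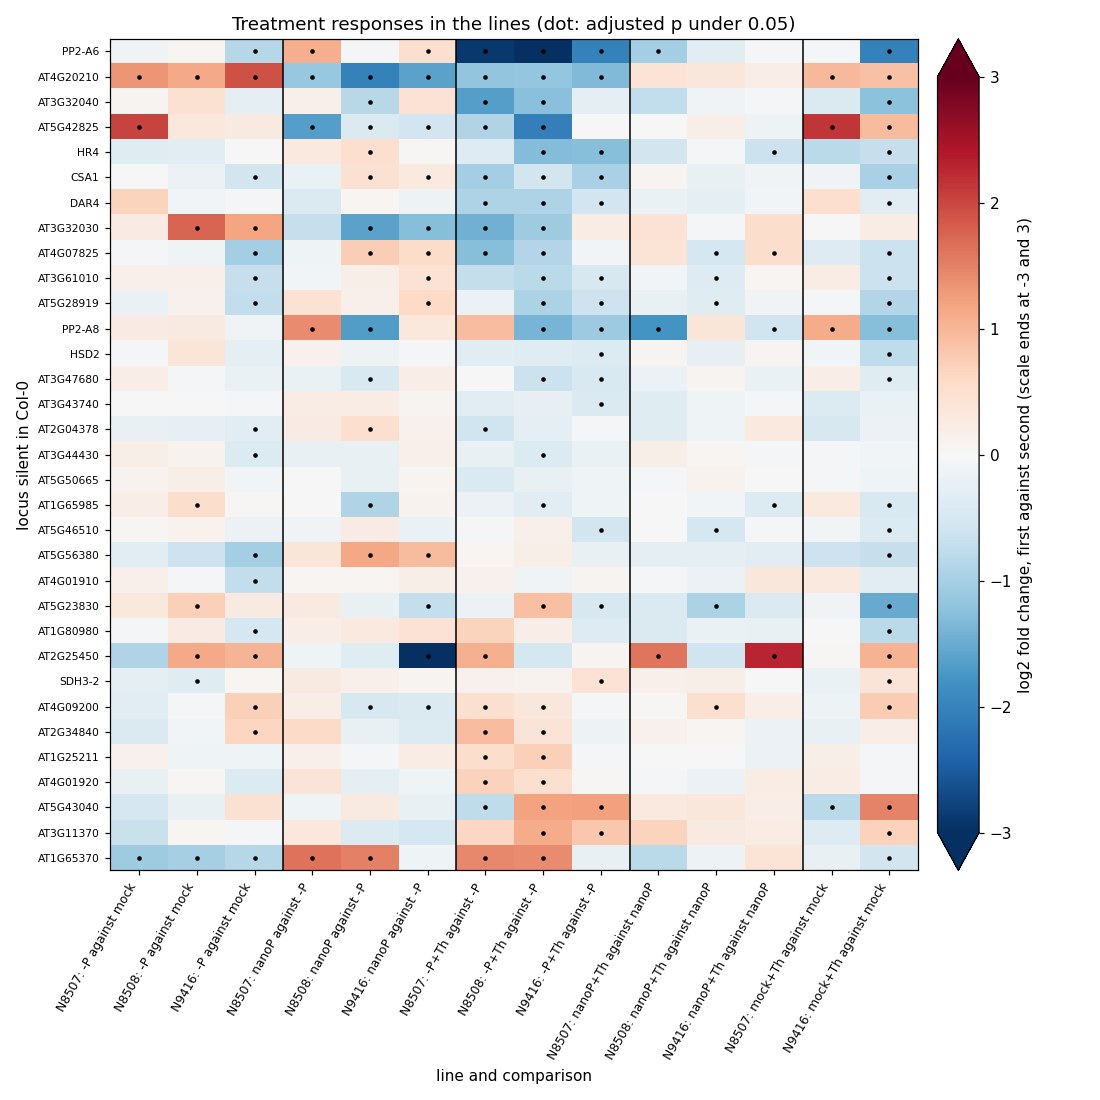
Log2 fold changes of 33 of the 34 loci (rows) in the 14 treatment comparisons within the lines (columns), first group against second, with a dot where the adjusted p from edgeR was under 0.05. AT4G20210 is red and PP2-A6 blue across the lines in the -P against mock and -P+Th against -P blocks respectively, while PP2-A8 and AT5G43040 change colour between lines.

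Among the NLR loci, CSA1 and DAR4 lie next to each other on chromosome 5, with no other locus between them. CSA1 is a TIR-type NLR and DAR4, also known as CHS3, an NLR that also carries a LIM domain, and in Arabidopsis they work as a pair in immunity. With thorium on -P, both fell in all 3 lines. CSA1 had 37.2, 37.8 and 40.2 CPM in N8507 -P and 20.2, 23.4 and 12.3 CPM in N8507 -P+Th (log2 fold change -1.01, SE 0.261, adjusted p = 0.00705 by edgeR). It fell by 0.56 (SE 0.11) in N8508 and by 0.98 (SE 0.0962) in N9416 on the log2 scale, and the groups did not overlap in any line. DAR4 had 101, 108 and 145 CPM in N8507 -P and 63.7, 78.6 and 41.4 CPM in N8507 -P+Th (-0.93, SE 0.283, adjusted p = 0.0198). Its changes were -0.94 (SE 0.107) in N8508 and -0.57 (SE 0.0943) in N9416. Genes lower in all 3 lines in this comparison made up 3.24% of those tested in each, and 4 of the 34 were among them: CSA1, DAR4, PP2-A6 and AT4G20210. None of the 34 rose in all 3 lines in this comparison, against 2.45% of genes. In N9416, CSA1 also fell with thorium on mock medium, from a mean of 49.2 to 25.3 CPM (-0.98, SE 0.0925), and DAR4 by 0.35 (SE 0.094). In N8507 the same comparison gave -0.10 (SE 0.256, adjusted p = 0.874) for CSA1 and 0.51 (SE 0.281, adjusted p = 0.296) for DAR4, with no call, and the difference between lines was not tested. Of 22 NLR genes outside the 34 that were tested under thorium on -P, 6 rose and 0 fell in N8507 (15.9% and 13.9% of all genes), 1 rose and 6 fell in N8508 (23.2% and 23.9%), and 1 rose and 13 fell in N9416 (20.1% and 19.9%).

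HR4, a homolog of the broad-spectrum mildew resistance gene RPW8, had 14.6, 14.3 and 17.9 CPM in N8508 -P and 6.98, 6.80 and 6.37 CPM in N8508 -P+Th (log2 fold change -1.31, SE 0.173, by edgeR). In N9416 the change was -1.28 (SE 0.165), from a mean of 28.7 to 12.3 CPM, and with nanoP it was -0.64 (SE 0.16). The latter call was lost without nanoP replicate 3 (adjusted p = 0.0522) and in the fit of all 66 libraries. In N8507, HR4 had 10.8, 11.3 and 20.3 CPM on -P and 10.1, 5.73 and 16.2 CPM on -P+Th, which overlap.

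The PP2 loci PP2-A8 and PP2-A6 also lie side by side on chromosome 5. Their coding identity was 74.3% over 536 aligned bases, out of the 1065 coding bases of PP2-A8. PP2-A6 had the largest response to thorium on -P among the 34 in all 3 lines. In N8507 it had 45.5, 53.9 and 82.3 CPM on -P and 8.35, 7.30 and 8.51 CPM on -P+Th (log2 fold change -2.89, SE 0.295, adjusted p = 2.21e-06 by edgeR). In N8508 the values were 124, 98.5 and 147 CPM against 6.44, 8.82 and 6.78 CPM (-4.16, SE 0.271, adjusted p = 1.46e-08). In N9416 they were 109, 103 and 108 CPM against 22.9, 23.9 and 35.0 CPM (-2.02, SE 0.123, adjusted p = 5.3e-09). The groups did not overlap in any line. With thorium on mock medium it fell in N9416, from a mean of 215 to 53.1 CPM (-2.03, SE 0.12). In N8507 its levels in mock (58.7, 43.9 and 98.9 CPM) and mock+Th (60.8, 50.3 and 72.5 CPM) overlapped and no call was made.

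PP2-A6 rose in N8507 from -P to nanoP (1.10, SE 0.272, adjusted p = 0.0259 by edgeR), a call that was lost without -P replicate 1 or 2 or without nanoP replicate 2 or 3 (adjusted p 0.0529 to 0.133). It fell when thorium was added to nanoP there (-1.01, SE 0.271, adjusted p = 0.0422), a call lost without any nanoP+Th replicate and without nanoP replicate 2 or 3 (0.0937 to 0.142).

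PP2-A8 moved in opposite directions between lines. From -P to nanoP it went from 45.4, 34.3 and 74.9 to 115, 107 and 205 CPM in N8507 (log2 fold change 1.42, SE 0.351, adjusted p = 0.0262 by edgeR) and from 171, 138 and 235 to 69.1, 48.8 and 64.7 CPM in N8508 (-1.68, SE 0.258, adjusted p = 0.000132). The call in N8507 was lost without -P replicate 1 or 2 or nanoP replicate 3 (adjusted p 0.118 to 0.143). With thorium on mock medium it rose in N8507 (1.11, SE 0.349, adjusted p = 0.0489) and fell in N9416 (-1.28, SE 0.152, adjusted p = 2.68e-06). The N8507 call was lost on leaving out any mock+Th replicate or mock replicate 1 or 2 (0.085 to 0.219). With thorium on -P it fell in N8508 (-1.40, SE 0.256) and N9416 (-1.10, SE 0.152), and in N8507 it went from a mean of 51.5 to 95 CPM without a call. Added to nanoP, thorium lowered it in N8507 (-1.78, SE 0.355, adjusted p = 0.00679) and N9416 (-0.60, SE 0.15, adjusted p = 0.00887). The latter call was lost without nanoP+Th replicate 1 (0.0526) or nanoP replicate 3 (0.0535) and in the fit of all 66 libraries.

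Of 13 PP2-A genes outside the 34, 11 were tested under thorium on -P in N8507, of which 3 rose and 2 fell, against 15.9% and 13.9% of all genes. In N8508, 12 were tested, of which 1 rose and 4 fell (23.2% and 23.9% of all genes), and in N9416 11, of which 2 rose and 5 fell (20.1% and 19.9%). The list was written with earlier results of these data known.

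**Figure D4:**
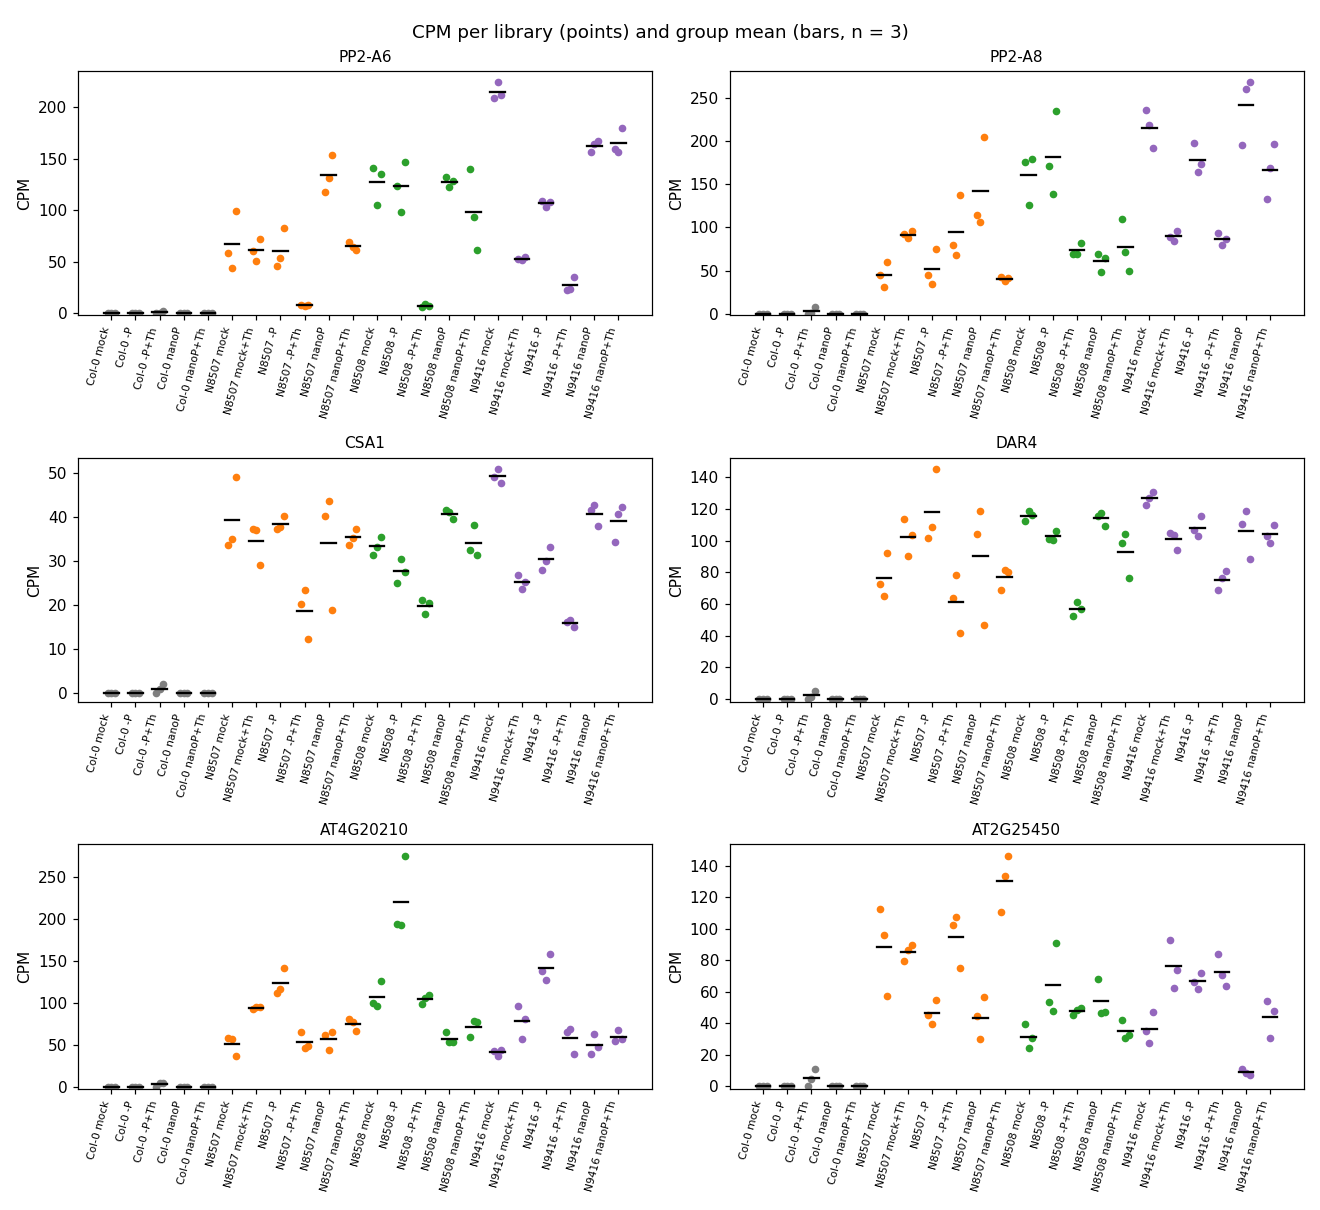
CPM of 6 loci silent in Col-0, in each library (points) of the 22 groups, with the group mean (bars, n = 3), on linear axes from 0. PP2-A6, CSA1 and DAR4 are lower in -P+Th than in -P in N8507, N8508 and N9416, AT4G20210 is highest in -P of each line, and AT2G25450 is lowest among the line groups in N9416 nanoP.

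Of the 3 terpenoid loci, AT4G20210, listed by RefSeq as terpene synthase 8 among its synonyms, was called in each phosphate comparison in every line. On -P against mock it rose in N8507 from 59.1, 57.6 and 36.9 to 112, 117 and 142 CPM (log2 fold change 1.32, SE 0.208, adjusted p = 0.000984 by edgeR). In N8508 it rose from 100, 96.3 and 126 to 194, 193 and 275 CPM (1.14, SE 0.164), and in N9416 from 43.8, 37.7 and 45.0 to 138, 128 and 159 CPM (1.91, SE 0.219). It was the 1 locus of the 34 that rose in all 3 lines, against 0.8% of genes. From -P to nanoP it fell in all 3 lines, by 1.14 (SE 0.207), 2.03 (SE 0.168) and 1.62 (SE 0.216) on the log2 scale, and so did the uncharacterized AT5G42825, against 1.35% of genes, while 0 of the 34 rose in all 3 (0.267%). Thorium on -P lowered AT4G20210 too, by 1.17 (SE 0.207), 1.16 (SE 0.164) and 1.33 (SE 0.214). On mock medium thorium raised it, by 0.97 (SE 0.207) in N8507 and 0.88 (SE 0.216) in N9416, and AT5G42825 likewise rose in both lines, against 2.98% of genes, while 0 fell in both (1.66%). With thorium on nanoP, 0 of the 34 rose in all 3 lines (0.118% of genes) and 0 fell (0.133%). The groups of AT4G20210 did not overlap in any of these comparisons.

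AT3G32030 and AT3G32040 lie near each other on chromosome 3, with at most 2 loci between them. AT3G32030 had 42.6, 52.5 and 48.8 CPM in N8508 mock and 107, 146 and 197 CPM in N8508 -P (log2 fold change 1.75, SE 0.194, adjusted p = 5.65e-05 by edgeR), and it rose by 1.18 (SE 0.227) in N9416. In N8507 it had 197, 145 and 96.4 CPM in mock and 180, 141 and 187 CPM in -P, which overlap, with no call. From -P to nanoP it fell by 1.61 (SE 0.193) in N8508 and by 1.29 (SE 0.227) in N9416. Thorium on -P lowered AT3G32040 in N8507 from 112, 100 and 117 to 34.2, 25.4 and 42.2 CPM (-1.65, SE 0.218), and AT3G32030 from 180, 141 and 187 to 68.8, 58.7 and 56.8 CPM (-1.44, SE 0.258). The groups did not overlap at either locus in N8507. In N8508 the mean went from 150 to 76.7 CPM at AT3G32030 and from 81.5 to 36.7 CPM at AT3G32040, also without overlap. In N9416 it went from 105 to 126 CPM and from 52.3 to 44.1 CPM in the same order, and the libraries overlapped.

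AT2G25450, of the family of oxygenases that use 2-oxoglutarate and iron, showed the largest change on nanoP. In N9416 it had 66.4, 61.5 and 72.0 CPM on -P and 10.9, 8.44 and 7.08 CPM on nanoP (log2 fold change -3.06, SE 0.233, adjusted p = 3.84e-08 by edgeR). Added to nanoP, thorium raised it there to 53.9, 30.8 and 47.6 CPM (2.28, SE 0.233, adjusted p = 4.31e-06), and in N8507 from 44.2, 29.7 and 56.5 to 110, 134 and 146 CPM (1.61, SE 0.263, adjusted p = 0.00142). In N8508 it had 67.9, 46.5 and 47.2 CPM on nanoP and 41.7, 30.7 and 32.4 CPM on nanoP+Th, with no call. On -P against mock it rose by 1.13 (SE 0.238) in N8508, a call absent in the fit of all 66 libraries (adjusted p = 0.0661), and by 1.03 (SE 0.208) in N9416, while N8507 went from a mean of 88.7 to 46.3 CPM with no call. With thorium it rose by 1.06 (SE 0.259) in N8507 on -P and by 1.05 (SE 0.208) in N9416 on mock medium.

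AT5G42825 had 9.43, 9.37 and 13.5 CPM in N8507 mock and 40.4, 45.4 and 42.5 CPM in N8507 -P (log2 fold change 2.03, SE 0.22, adjusted p = 2.44e-05 by edgeR), and 45.0, 38.4 and 51.3 CPM in N8507 mock+Th (2.15, SE 0.22, adjusted p = 5.7e-06). It fell from -P to nanoP in N8507 (-1.65, SE 0.217), and under thorium on -P in N8508 from 27.9, 25.7 and 31.8 to 7.34, 8.24 and 6.37 CPM (-2.05, SE 0.176). The groups did not overlap in these comparisons. In N9416 mock and -P, where it had 9.98 to 12.8 CPM, no call was made.

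AT1G65370, a TRAF-like family protein, went the other way from AT4G20210 on -P. It fell on -P against mock in all 3 lines, with log2 fold changes of -1.06 (SE 0.272) in N8507, -0.99 (SE 0.253) in N8508 and -0.86 (SE 0.223) in N9416, against 0.0769% of genes lower in all 3. In N8507 it went from 17.6, 28.3 and 21.7 to 9.52, 14.4 and 7.62 CPM. These falls were not stable: the N8507 call (adjusted p = 0.0369 by edgeR) was lost without -P replicate 1 or 3 or mock replicate 2 or 3 (0.0648 to 0.206), the N8508 call without -P replicate 2 or 3 or mock replicate 1 (0.067 to 0.117), and none of the 3 held in the fit of all 66 libraries. AT1G65370 rose from -P to nanoP by 1.62 (SE 0.274) in N8507 and 1.52 (SE 0.251) in N8508, and under thorium on -P by 1.43 (SE 0.274) and 1.41 (SE 0.252).

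The C1 domain locus AT5G43040 was lower under thorium on -P in N8507 (log2 fold change -0.77, SE 0.251, adjusted p = 0.0281 by edgeR) and higher in N8508 (1.20, SE 0.279) and N9416 (1.22, SE 0.265). Its CPM went from 23.0, 20.0 and 14.8 to 13.1, 11.7 and 8.19 in N8507, and from 11.8, 7.56 and 10.6 to 24.1, 22.6 and 26.0 in N9416. On mock medium it was likewise lower in N8507 (-0.81, SE 0.248) and higher in N9416 (1.49, SE 0.273), the former call being lost without mock+Th replicate 1 or 3 or mock replicate 1 or 3 (0.0992 to 0.201). A further C1 domain locus, AT3G11370, was higher under thorium on -P in N8508 (1.11, SE 0.229) and N9416 (0.81, SE 0.193). The latter call was lost in the fit of all 66 libraries (adjusted p = 0.0911).

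AT5G23830 took opposite calls as well. Under thorium on -P it rose in N8508 from 67.8, 58.8 and 64.1 to 128, 127 and 124 CPM (log2 fold change 0.90, SE 0.101, adjusted p = 4.03e-06 by edgeR) and was lower in N9416, with 84.7, 92.4 and 103 against 87.3, 68.3 and 51.1 CPM (-0.48, SE 0.157, adjusted p = 0.0214). The groups overlap in N9416 and not in N8508. On nanoP+Th against nanoP it fell by 0.96 (SE 0.104) in N8508, and on mock+Th against mock by 1.51 (SE 0.164) in N9416. The F-box locus AT5G56380 rose from -P to nanoP in N8508 (1.17, SE 0.219) and N9416 (0.95, SE 0.185) and fell on -P against mock in N9416 (-1.03, SE 0.186). The uncharacterized AT4G07825 fell on -P in N9416 (-1.01, SE 0.109).

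Changes were small at the remaining loci with a symbol. HSD2, a hydroxysteroid dehydrogenase, fell under thorium in N9416 by 0.42 (SE 0.126) on -P and by 0.77 (SE 0.124) on mock medium. SDH3-2 was lower on -P in N8508 (log2 fold change -0.37, SE 0.0988, adjusted p = 0.0292 by edgeR), a call lost without -P replicate 1 or 2 or mock replicate 1 or 2 (0.0571 to 0.123). Under thorium in N9416 it was called higher, by 0.42 on -P and by 0.40 on mock medium. The call on -P was lost without -P replicate 1 (adjusted p = 0.0549 by edgeR) and in the fit of all 66 libraries. The near-identical copy of SDH3-2 limits both the level and the changes.

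Between mock roots of N9416 and N8508, 2 of the 34 loci were higher in N9416 and 3 lower, against 10.5% of all genes called higher and 11.8% called lower. AT5G23830 had 85.9, 79.8 and 91.2 CPM in N9416 and 45.0, 37.0 and 42.5 CPM in N8508 (log2 fold change 1.11, SE 0.258, adjusted p = 0.00133 by edgeR). PP2-A6 had 209, 224 and 211 CPM in N9416 and 141, 105 and 135 CPM in N8508 (0.82, SE 0.303, adjusted p = 0.045), a call lost on leaving out any 1 of the 6 libraries (0.0665 to 0.159). AT4G20210 was lower in N9416 (-1.29, SE 0.313), as were AT5G42825 (-1.09, SE 0.282) and AT4G09200 (-0.97, SE 0.294), the last not without N9416 mock replicate 3 (adjusted p = 0.0645). Without N9416 mock replicate 3 the count fell from 5 to 3, and with a fit of these genotypes alone it was 16. The choice held the 11 reverse loci under 0.5 CPM in both groups, so no test of them is given.

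Within Col-0, none of the 11 loci silent in the lines was called by edgeR in 3 comparisons, none of which included -P+Th. In -P against mock, 0 of 11 were called, against 6.61% of all genes, with 1 at an unadjusted p under 0.05 and 1 called by DESeq2. In nanoP against -P the counts were 0 (6.1% of all genes), 1 and 0, and in nanoP+Th against nanoP 0 (0.105%), 0 and 0. Without Col-0 -P replicate 3, 1 was called in nanoP against -P. Log2 fold changes lay between -0.46 and 0.51 for -P against mock, which does not show that the levels were equal. In Col-0 -P+Th, which was not tested against other Col-0 groups, AT5G17100 had 45.5, 26 and 34.8 CPM, all above the 12.9 to 20.5 CPM of the other 12 libraries. AT4G12280 had 14.7, 10.5 and 5.10 CPM there, against 13.05 to 38 CPM in the others, and these overlap. Per length, AT1G24388 was the highest of the 11 in Col-0 outside -P+Th, with a median of 92.3 TPM, followed by AT4G19240 at 69.6, AT1G12340 at 31.4 and AT1G35617 at 31.1 TPM, and AT4G11540 was the lowest at 6.67 TPM. AT4G19240 ranged from 50.5 to 93.5 CPM over the 12 libraries, with a median of 71 CPM. Of the 11, 4 had no read in the 33 libraries of N8508 and N9416, which hold 394 M reads and allow up to 0.00761 CPM, and the other 7 had at most 19 reads. Of the 34 loci silent in Col-0, 2 passed the filter in the Col-0 fit, but the choice held them under 0.5 CPM in the groups compared, so no test of them is given.

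Both sets lay on several chromosomes, and the share of all loci on each chromosome was not set beside their counts. By locus number, the 34 lie on chromosomes 1 to 5 in counts of 5, 3, 9, 6 and 11, and the 11 in counts of 5, 0, 1, 3 and 2. Beside the CSA1 and DAR4 pair and the PP2-A8 and PP2-A6 pair, no others of the 34 were direct neighbours, and allowing up to 2 loci in between adds AT3G32030 with AT3G32040 and the C1 domain loci AT4G01910 with AT4G01920. Neighbours were sought outward from each member, passing over other members and loci not at 5 CPM or more in all expressing libraries. By this search, none could lie under 0.5 CPM in all libraries of the silent side. The share over all loci was not computed. Of 59 such neighbours of the 34, 56 lay at 5 CPM or more in all 12 Col-0 libraries, the others being HSD3, PSRP6 and AT5G46520. PSRP6, beside CSA1, had a median of 2.26 CPM in Col-0 and 16.9 CPM in N8507. Of 22 neighbours of the 11, 19 lay at 5 CPM or more in all 33 line libraries.

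A few loci just missed the limits. Between 0.5 and 1 CPM on the silent side or between 2 and 5 CPM on the expressed side were 29 loci for Col-0 and 16 for the lines. AT1G58410, of the coiled-coil NLR class, reached 0.907 CPM in Col-0 and had at least 25.6 CPM in N8508 and N9416. PP2-A3 reached 0.357 CPM in Col-0 but had a minimum of 3.26 CPM in those lines, at a median of 38.4. AT4G24420, an RNA-binding protein, reached 0.535 CPM in the lines against at least 16.7 CPM in Col-0. Just inside, AT5G56380 had a minimum of 5.00 CPM in N8508 and N9416, AT1G80980 one of 5.19 CPM, and AT1G35617 one of 5.14 CPM in Col-0.

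Other NLR genes were unequal between Col-0 and the lines without meeting the limits. RPP4, which gives resistance to downy mildew, had 14.4 to 21.9 CPM in the 12 Col-0 libraries and 0 to 1.98 CPM in N8508 and N9416, and RPP8, of the same role, had 19.3 to 29.1 CPM and 0 to 2.68 CPM. Both were higher in Col-0 -P+Th than in N8507 -P+Th, RPP4 with a log2 fold change of 5.05 (SE 0.663, adjusted p = 4.79e-08 by edgeR) and RPP8 with 4.06 (SE 0.474, adjusted p = 2.23e-09). Of 26 NLR genes tested in that comparison, 3 were higher and 4 lower, of which 3 of the lower are among the 34, beside 14.0% of all genes called higher and 13.6% lower. Of 15 PP2-A genes 3 were higher and 7 lower, 2 of the lower being PP2-A6 and PP2-A8, and of 8 DA1 and DAR genes 1 was higher and 1, DAR4, lower.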

How the data were processed

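The members and gene lists were chosen with earlier results of these data known. Root RNA was isolated with a Spectrum kit and made into NEBNext Ultra II Directional libraries, per the labels' protocols. Trimmomatic, Salmon 1.3.0 and the build TAIR10 are named per the submitters' processing notes. The tables the authors deposited hold estimated counts per transcript model, which are not normalized, the TPM values of the same Salmon runs, and effective lengths. Bias options and the use of strand are not given in the sources used here. The 32875 models are coding sequences (99.99% of lengths were multiples of 3), so reads in untranslated regions were not counted, and reads shared by near-identical loci were divided by Salmon's model.

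Estimated counts were summed per locus and divided by the library total for CPM. For tests they were rounded and tested two-sided by edgeR 4.0.16 under R 4.3.3, using TMM factors, filterByExpr by group, the quasi-likelihood F-test and Benjamini-Hochberg adjustment over all genes tested. The threshold was an adjusted p of 0.05. Treatment comparisons came from 4 separate fits, 1 a genotype (19762 to 20241 genes), and comparisons across genotypes used 1 fit of all 66 libraries with 20839 genes. The SE is the absolute log2 fold change divided by the square root of F. The scripts were tested on simulated data. DESeq2 1.42.0, other size factors, no filter, other fits and limits, each library left out, and the low effective length libraries left out were the alternatives. Folds against a group without reads use a floor of 3 reads over that group, and intervals and floors cover counting error only.

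RefSeq (assembly TAIR10.1) matched 26645 loci (97.5%) and gave symbols, products and locus order. At least 1 of its coding lengths equalled that of a model in the files at all 45 members. The same held at 97.3% of loci with a RefSeq coding sequence. The longest differed at AT3G61010, with 1383 bases in the files and 1284 in RefSeq. Since the build name differs, no coordinates were taken from RefSeq. Coding copies were found by blastn over at least 50% of the length. The values of 1 of the 34 loci are not reported here singly, though counts and medians include it. Named loci are otherwise those with a symbol, the 6 highest in N8507 by TPM, all loci silent in the lines, up to 3 called in each direction per comparison, and loci near the limits. AT4G01920, PSRP6 and other neighbours were named for their position.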

Additional observations from a re-analysis of the deposited data

Results flagged for a closer look

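At 15 combinations of a locus and a treatment, the 3 libraries of both groups lay apart in opposite directions in different lines. Only the loci silent in Col-0 were searched, and the share of all genes that do the same was not computed. These counts are thus not a trait of the loci. The difference between lines was not tested in any combination, and groups of 3 were too small for a test of single outlying libraries. Values are log2 fold changes of the first treatment against the second.

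In 5 of the combinations edgeR called both directions. PP2-A8 was at 1.42 in N8507 and -1.68 in N8508 for nanoP against -P, and at 1.11 in N8507 and -1.28 in N9416 for mock+Th against mock. AT5G43040, a C1 domain locus, was at -0.77 in N8507 against 1.20 in N8508 and 1.22 in N9416 for -P+Th against -P, and at -0.81 in N8507 and 1.49 in N9416 for mock+Th against mock. The uncharacterized AT4G07825 was at -0.53 in N8508 and 0.52 in N9416 for nanoP+Th against nanoP, and neither call held in the fit of all 66 libraries (adjusted p = 0.417 and 0.439 by edgeR), nor did that of AT5G43040 in N8507 mock+Th (0.0609).

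AT2G25450 stood at -0.89 in N8507 (not called), 1.13 in N8508 and 1.03 in N9416 for -P against mock, and at 1.61 in N8507, -0.59 in N8508 (not called) and 2.28 in N9416 for nanoP+Th against nanoP.

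At the other 8, one direction or neither was called. For -P against mock, the coatomer subunit locus AT2G34840 was at -0.08 in N8508 and 0.63 in N9416, and DAR4 at 0.67 in N8507, -0.08 in N8508 and -0.07 in N9416. For nanoP against -P, AT3G32040 was at -0.82 in N8508 and 0.43 in N9416. For -P+Th against -P, AT5G46510 was at 0.15 in N8508 and -0.55 in N9416. For mock+Th against mock, N8507 and N9416 were at 0.30 and -0.46 for AT1G65985, -0.40 and 0.69 for AT3G11370, 0.28 and -0.31 for AT4G01910, and -0.21 and 0.40 for SDH3-2.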

How the results depend on the processing

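Of 34 loci silent in Col-0, the rule gave 55 with an expressed limit of 2 CPM and 21 with 10 CPM. Of 11 silent in the lines, it gave 17 and 6, and 4 with a silent limit of 0.1 CPM. One library left out at a time gave 34 to 35 and 11 to 12. In 1 fit of all 66 libraries, where N8508 and N9416 share the wider spread of N8507 and Col-0, calls in N8508 fell from 7 to 2 (-P against mock), 15 to 7 (nanoP against -P) and 7 to 1 (nanoP+Th against nanoP). In N9416 they fell from 17 to 9, 12 to 5 and 5 to 1 in the same order, from 17 to 7 for -P+Th against -P and from 25 to 13 for mock+Th against mock. Without the libraries of low effective length, N8507 went from 3 to 5 for -P against mock and from 4 to 10 for mock+Th against mock, and Col-0 from 0 to 1 for -P against mock. DESeq2 gave 5 in place of 3 for nanoP+Th against nanoP in N8507, 1 in place of 0 for -P against mock in Col-0 and 8 in place of 5 for N9416 mock against N8508 mock, where a fit of these lines alone gave 16. Why these counts changed was not tested.

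With 1 library left out, calls in N8507 ranged from 2 to 3 (-P against mock), 3 to 5 (nanoP against -P), 10 to 14 (-P+Th against -P), 2 to 3 (nanoP+Th against nanoP) and 2 to 3 (mock+Th against mock). In N8508 they ranged from 4 to 9, 13 to 15, 19 to 24 and 5 to 9 in the first 4 comparisons, and in N9416 from 13 to 16, 10 to 15, 14 to 17, 2 to 5 and 21 to 26. They ranged from 0 to 0, 0 to 1 and 0 to 0 in Col-0 (-P against mock, nanoP against -P, nanoP+Th against nanoP), from 45 to 45 for Col-0 -P+Th against N8507 -P+Th and from 3 to 4 for N9416 mock against N8508 mock. No called value changed sign. Of 82 named calls, 67 held with every single library left out. No paired analysis was possible because library numbers in the labels are unique to each library and replicate numbers were given in accession order. At this depth, a count of 0 allows a level of up to 0.0167 CPM over the 12 Col-0 libraries and up to 0.00761 CPM over the 33 line libraries.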
